A study of Homo sapiens with 4 samples.

Results

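The epithelial and mesenchymal state genes described here are 57 genes chosen by name: junction, keratin, protease and regulator genes of epithelial cells on the epithelial side, and cadherins, contractile proteins, transcription factors and matrix genes of the epithelial-mesenchymal transition (EMT) on the mesenchymal side. The rule names the genes and uses no measured value. Of these, 55 were measured among 19775 genes, 34 epithelial and 21 mesenchymal, through 127 of the 54613 probe sets of the array. KRT17 was not analysed here, and ESRP2 was not used because its probe set is annotated to a second gene as well.

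The cells were NUGC3, a human line established from gastric cancer and grown in RPMI1640 medium. The 2 control arrays hold RNA of cells labelled PRMT6 wild type, and the 2 knockout arrays hold RNA of cells in which PRMT6 was targeted by a lentiviral lentiCRISPR v2 vector with 1 guide, followed by puromycin and limiting dilution. The sources used here do not say how many clones stand behind the knockout arrays, which vector, if any, the control cells carried, or whether arrays 1 and 2 of a group came from separate cultures. The p-values therefore measure the spread between these arrays, which may be technical, and a difference between a clone and its parental population cannot be told apart from the loss of PRMT6. PRMT6 encodes a protein arginine methyltransferase, an enzyme that places asymmetric dimethyl marks on arginines of histones and other proteins. The guide was designed against PRMT6 and is shown because it defines the knockout group.
PRMT6 guide: gacggtactggacgtgggcg

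PRMT6 checks the labels. Its RMA log2 expression was 7.66 and 7.66 on the control arrays and 6.87 and 6.91 on the knockout arrays, so the groups did not overlap. That is a log2 difference of -0.77 (SE 0.0725), or 1.70-fold lower, with an adjusted p of 0.0502 by limma, just outside the threshold of 0.05. A Cas9 cut need not lower the transcript, so this level does not measure the protein. All values below are RMA log2 expression, the background-corrected, normalised signal of a probe set on a log2 scale. Differences are knockout minus control, SE is the moderated standard error, and adjusted p-values come from limma over all 19775 genes, with 2 arrays a group.

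Epithelial cells hold to each other through adherens junctions, tight junctions and desmosomes, which are anchored on actin and on keratin filaments. In EMT, transcription factors of the SNAI, ZEB and TWIST families repress junction genes such as CDH1, while vimentin, N-cadherin and matrix proteins are made instead. Carcinoma cells often lie between these states, and in gastric cancer loss of E-cadherin is a hallmark of the diffuse type.

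In control NUGC3 cells the epithelial side was bright and most of the mesenchymal side was dim. Against the control means of all 54613 probe sets, whose quartiles lay at 3.26, 4.75 and 6.70, 30 of the 34 epithelial genes lay above the upper quartile, 32 lay above the median and 1 (KRT23) lay below the lower quartile. Of the 21 mesenchymal genes, 3 lay above the upper quartile (FN1, SNAI2 and COL1A1), 8 lay above the median and 2 lay below the lower quartile (TWIST1 and LOX). COL1A1 lay above the upper quartile by its brightest probe set only, as its others had control means from 2.27 to 6.59. Of all 19775 genes, 7777 lay above the upper quartile and 12770 above the median. A probe set's brightness depends on its probes, so these places are not abundances and genes are not ranked against each other here.

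The transcripts that mark the epithelial state were present on every array. KRT18, the partner of KRT8 in the filaments of simple epithelia, read 13.67 and 13.61 on the control arrays and 13.74 and 13.76 on the knockout arrays. EPCAM, a surface adhesion protein of carcinoma cells, read 12.02 and 11.89, then 12.05 and 11.98. On the mesenchymal side VIM, the intermediate filament of mesenchymal cells, read only 4.42 and 4.49 on the control arrays, below the median probe set, and CDH2, N-cadherin, read 4.25 and 4.32. FN1, the matrix glycoprotein fibronectin, was bright, at 12.64 and 12.73. Of its 7 probe sets, 4 read between 12.39 and 12.73 on all arrays, and the difference ranged from -0.02 to 0.27 over the 7.

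The labelled tissue was less clear than the epithelial state. Of 14 gastric epithelium markers, 10 lay above the median probe set in control cells and 1, the transcription factor GATA6, above the upper quartile. Of all 19775 genes, 12770 lay above the median and 7777 above the upper quartile. GATA6 read 8.13 and 7.87 on the control arrays and 7.30 and 7.30 on the knockout arrays (log2 difference -0.70, adjusted p = 0.122 by limma). MUC1, a surface mucin, read 6.33 and 6.33, then 7.03 and 6.90 (0.64, adjusted p = 0.0897 by limma), and GATA4, a relative of GATA6, differed by 0.24 (adjusted p = 0.370 by limma). The gastric markers thus lay in both directions, 5 positive and 9 negative. The gastrokines GKN1 and GKN2, secreted by surface mucous cells of the stomach, lay between 3.22 and 4.09 on every array, below the median probe set. ANXA10, an annexin of gastric epithelium, fell by 1.39 on the log2 scale in the knockout cells (adjusted p = 0.0483 by limma). It was the only gene of the marker list to pass the threshold, which 0.475% of all genes passed.

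**Figure D1:**
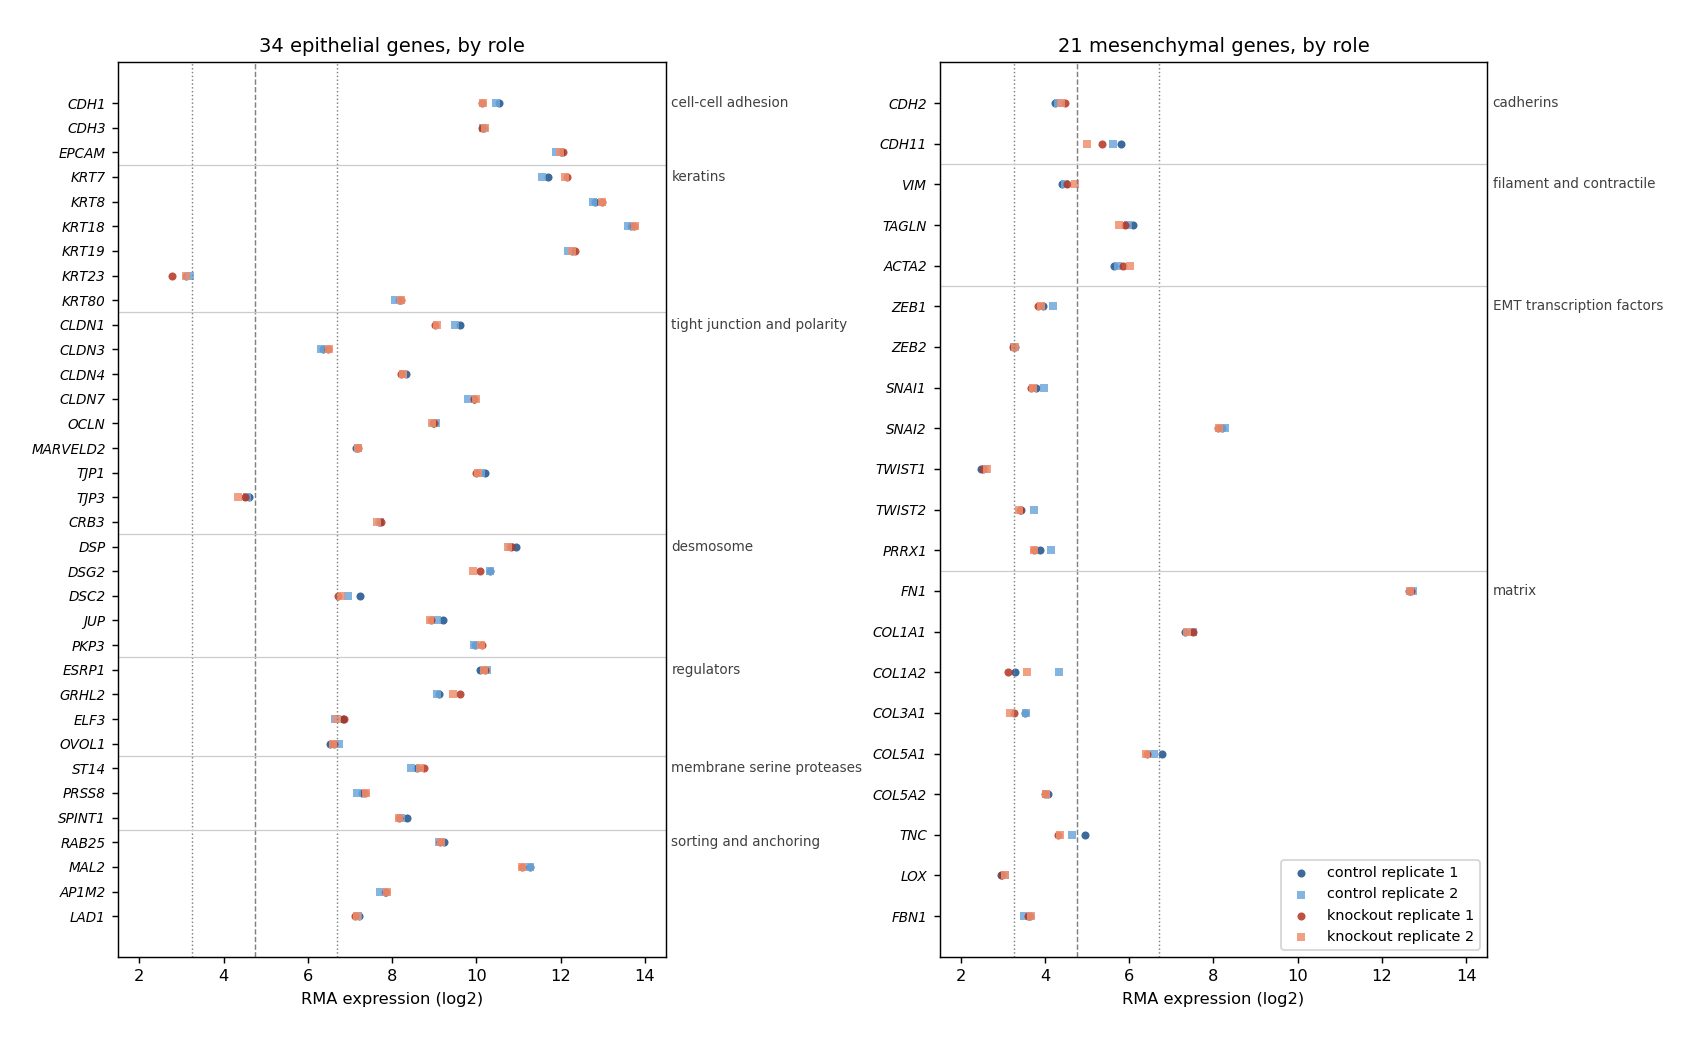
RMA log2 expression (horizontal axis) of the 55 measured genes on the 2 control and 2 knockout arrays, 1 point per array, grouped by role; the vertical lines mark the quartiles of the control means over all probe sets. By control mean, 30 of the 34 epithelial genes lie right of the upper quartile, against 3 of the 21 mesenchymal genes.

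Knockout and control cells were first compared with the brightest probe set of each gene. By limma, 94 of 19775 genes passed an adjusted p of 0.05 (0.475% of all genes), 71 of them higher (0.359%) and 23 lower (0.116%). None of the 55 genes passed, where the smallest adjusted p was 0.133 (CLDN1). With so small a share called over all genes, 0 of 55 does not show that these genes were unchanged. These counts depended on the fit: without any 1 of the 4 arrays limma called 0 genes in all, and with a trended, robust eBayes it called 835 genes, among them 7 of the 55 (CDH1, CLDN1, DSG2 and MAL2 lower, and GRHL2, KRT7 and KRT8 higher). At an unadjusted p under 0.05, which 11.9% of all genes met (6.12% higher, 5.83% lower), there were 2 higher and 4 lower of the 34 epithelial genes and 0 higher and 4 lower of the 21 mesenchymal genes. No difference of a gene's brightest probe set exceeded 1.5-fold, a size exceeded by 1.72% of all genes upward and by 0.834% downward. The brightest probe set was chosen over all 4 arrays, knockout included. By the control arrays alone another probe set would be the brightest of CDH11, TAGLN, FBN1 and LOX. For CDH11 and TAGLN that probe set differed by -1.98 and -0.59, each past 1.5-fold. For FBN1 and LOX it differed by -0.39 and -0.22.

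The median log2 difference was -0.0040 over the epithelial genes and -0.12 over the mesenchymal genes, against -0.0091 over all genes. Both knockout arrays lay above both control arrays in 12 epithelial and 3 mesenchymal genes, and both lay below in 11 epithelial and 11 mesenchymal genes. Among all genes 21.7% lay above in this way and 21.6% below, and these shares vary with brightness. Among all genes above the median level, which hold 32 of the 34 epithelial genes, they were 27.3% above and 21.8% below. Among genes at or below it, which hold 13 of the 21 mesenchymal genes, they were 11.4% above and 21.2% below, and 2 of those 13 lay above and 6 below. With 2 arrays against 2, an exact permutation test, two-sided, cannot give a p under 0.333.

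**Figure D2:**
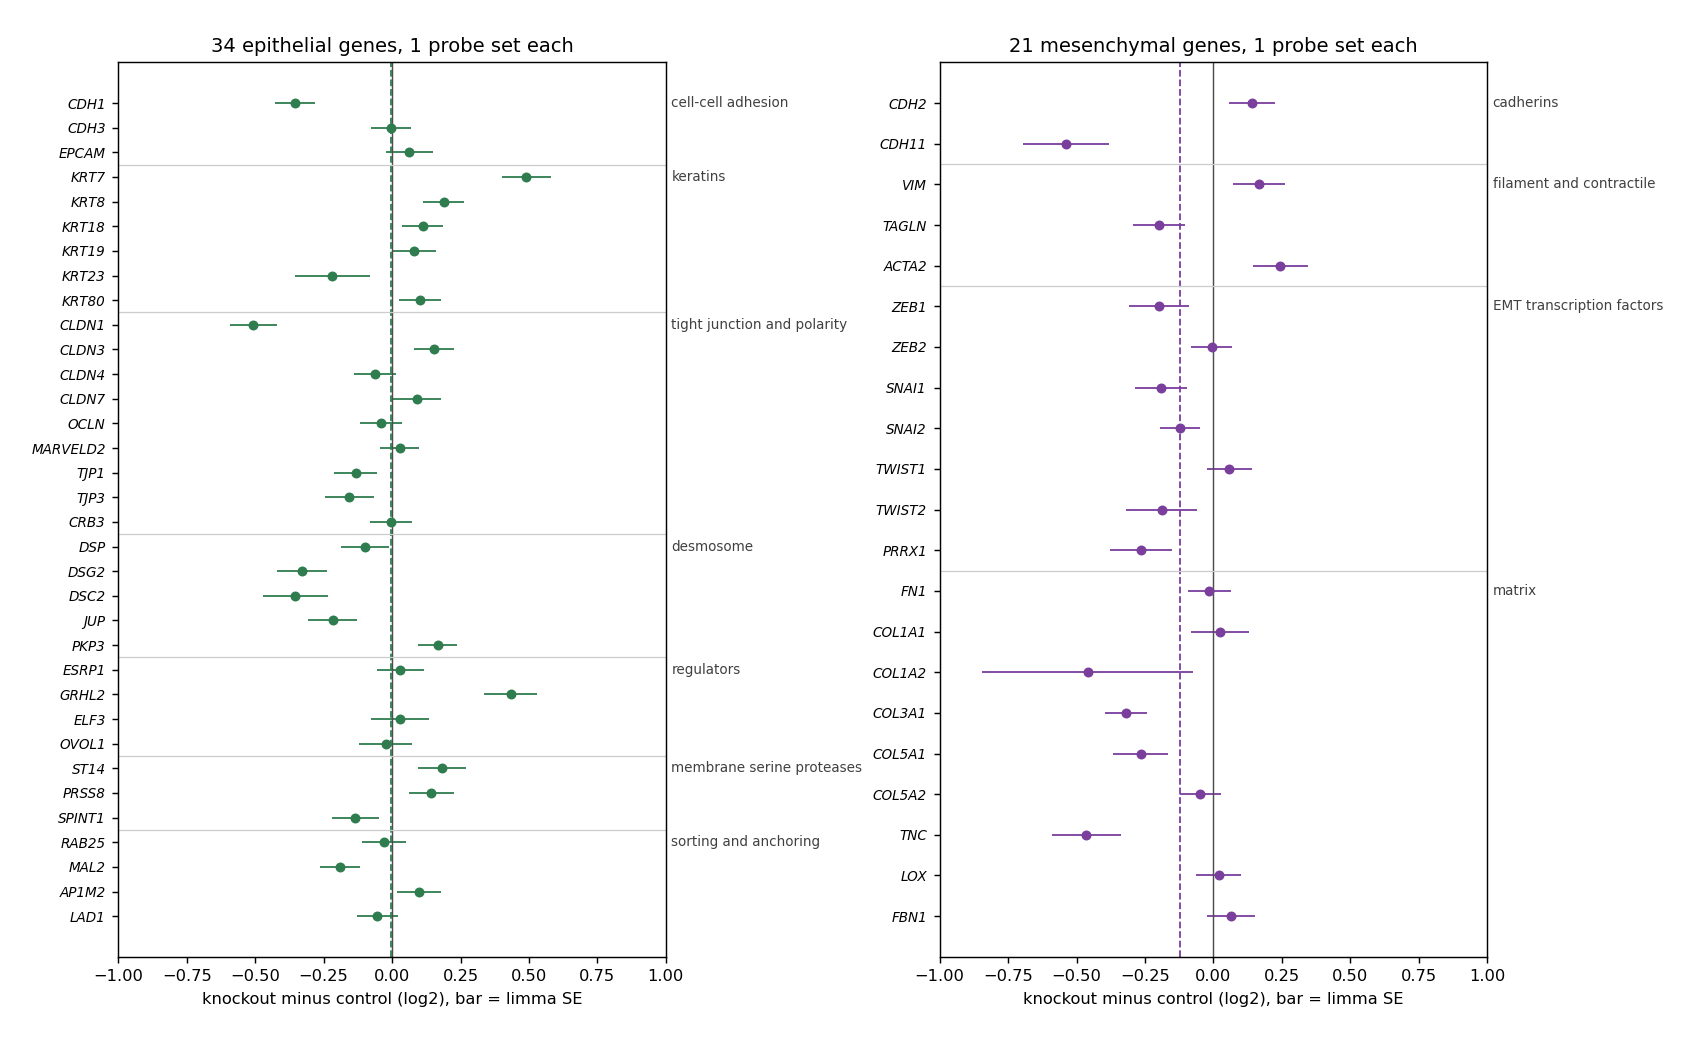
Log2 difference, knockout minus control (horizontal axis), of the 55 genes by role, with bars of 1 moderated standard error from limma. The points run from -0.54 (CDH11) to 0.49 (KRT7), desmosome and transcription factor genes lie mostly left of 0, and keratins mostly right of it.

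The adhesion receptors did not move as a group. CDH1, E-cadherin, the adherens junction receptor whose loss is the textbook sign of EMT, read 10.53 and 10.48 on the control arrays and 10.14 and 10.16 on the knockout arrays. The groups did not overlap, the log2 difference was -0.35 (SE 0.074, 1.28-fold lower), and the adjusted p was 0.187 by limma. The second CDH1 probe set, at 6.94 and 6.68 against 6.69 and 6.67, differed by -0.13. CDH3, P-cadherin, the nearest measured gene to CDH1 on its left along chromosome 16, read 10.18, 10.16, 10.14 and 10.20 over the 4 arrays, a difference of -0.0039. The 50 nearest measured genes above the median level (up to 25 on each side) had a median difference of 0.04.

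The keratins, which build the cytoskeleton of epithelial cells, lay the other way. In 5 of the 6 measured keratins both knockout arrays lay above both control arrays, and the median difference was 0.11. Of all genes above the median level, which hold 5 of the 6, 27.3% lay above in this way. KRT7, a keratin of simple glandular epithelia, read 11.71 and 11.57 in control cells and 12.16 and 12.10 in knockout cells. Its difference of 0.49 (SE 0.089, 1.41-fold higher) had an adjusted p of 0.150 by limma, and 2 more of its 4 probe sets differed by 0.27 and 0.30. The dimmest KRT7 probe set, at 3.16 and 2.87 against 2.73 and 2.71, differed by -0.30.

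KRT8, which pairs with KRT18, read 12.83 and 12.76 in control cells and 12.99 and 12.97 in knockout cells, a difference of 0.19 (adjusted p = 0.437 by limma). KRT18, whose values are given above, differed by 0.11, KRT19 by 0.08 and KRT80 by 0.10. KRT19, another keratin of simple epithelia, read 12.26 and 12.18, then 12.34 and 12.27, with the lower knockout value barely above the higher control value. The mean over both of its probe sets turned the difference to -0.04. The exception, KRT23, was dim throughout (3.10, 3.20, 2.77 and 3.10) and its groups touched. Control replicate 2 read below control replicate 1 for 5 of the 6 keratins.

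Tight junction and polarity genes split. The claudins seal the space between cells. CLDN1 read 9.62 and 9.49 in control cells and 9.03 and 9.07 in knockout cells, a difference of -0.51 (SE 0.085, 1.42-fold lower, adjusted p = 0.133 by limma), and its second probe set differed by -0.45. The nearest genes above the median level were P3H2, a collagen prolyl hydroxylase, at -0.51, and IL1RAP, at -0.22, and the dimmer genes between them and CLDN1, CLDN16 and TMEM207, differed by 0.13 and 0.06. The median of the 50 genes around CLDN1, counted as for CDH1, was 0.02.

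Other claudins did not follow CLDN1. CLDN3 read 6.35 and 6.32, then 6.47 and 6.50 (difference 0.15), although its second probe set differed by -0.24. CLDN4, its neighbour on chromosome 7, read 8.34 and 8.25, then 8.21 and 8.25 (difference -0.06), and the second array of each group read the same to 2 decimals. CLDN7 differed by 0.09. The barrier proteins OCLN and MARVELD2 differed by -0.04 and 0.03. The scaffolds TJP1 and TJP3, which tie claudins to actin, had both knockout arrays below both control arrays, with differences of -0.13 and -0.16. Among all genes 21.6% lay below in this way. CRB3, an apical polarity protein, read 7.68 and 7.71, then 7.73 and 7.65, a difference of -0.0042.

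The desmosome genes, which couple cells through keratin filaments, had the lowest median of the epithelial roles with 3 or more genes, -0.22. In 3 of the 5 both knockout arrays lay below both control arrays, against 21.8% of all genes above the median level. DSG2, a desmosomal cadherin, read 10.34 and 10.32 in control cells and 10.08 and 9.92 in knockout cells, a difference of -0.33 (SE 0.090, 1.26-fold lower, adjusted p = 0.282 by limma). DSC2, the second desmosomal cadherin, read 7.24 and 6.96, then 6.72 and 6.78, a difference of -0.35 (SE 0.12, adjusted p = 0.367 by limma). The 3 dimmer DSC2 probe sets differed by -0.10 to 0.06. JUP, the plaque protein plakoglobin, read 9.21 and 9.06, then 8.92 and 8.91, a difference of -0.22.

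Not every plaque gene lay on that side. PKP3, plakophilin, read 9.97 and 9.96, then 10.14 and 10.12, a difference of 0.17 without overlap, and its second probe set differed by 0.12. DSP, desmoplakin, differed by -0.10 and its groups overlapped. DSG2 and DSC2 lie in the same desmosomal cadherin cluster of chromosome 18, with 4 measured genes between them (DSC1, DSG1, DSG4 and DSG3), all below the median level, whose differences ran from -0.48 to 0.01. The 50 genes above the median level around them had a median difference of 0.03, and 18 of the 50 were negative.

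SNAI and ZEB proteins are known to bind the E-box CAGGTG in junction gene promoters. The 250 bases before each RefSeq transcription start (build GRCh38.p14) were searched for CAGGTG and its reverse complement CACCTG, which cannot overlap each other. The table of starts listed 19 of the epithelial genes and 12 of the mesenchymal genes, and CDH1, CDH11, KRT7 and GRHL2 were not among them. The windows of DSG2 and DSC2 are shown as desmosomal cadherins of 1 cluster with like values, and CRB3 as the gene with the most matches and the smallest difference among the 3. All are printed 5′ to 3′ in the direction of transcription, with CAGGTG or CACCTG in capitals. DSG2 lies at chr18:31497927-31498176 (plus strand), DSC2 at chr18:31102422-31102671 (minus strand) and CRB3 at chr19:6464021-6464270 (plus strand).
DSG2: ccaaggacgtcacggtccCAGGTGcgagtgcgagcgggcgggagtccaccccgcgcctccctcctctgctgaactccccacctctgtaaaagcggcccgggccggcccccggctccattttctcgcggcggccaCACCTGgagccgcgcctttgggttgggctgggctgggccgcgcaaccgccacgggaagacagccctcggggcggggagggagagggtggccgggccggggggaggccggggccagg
DSC2: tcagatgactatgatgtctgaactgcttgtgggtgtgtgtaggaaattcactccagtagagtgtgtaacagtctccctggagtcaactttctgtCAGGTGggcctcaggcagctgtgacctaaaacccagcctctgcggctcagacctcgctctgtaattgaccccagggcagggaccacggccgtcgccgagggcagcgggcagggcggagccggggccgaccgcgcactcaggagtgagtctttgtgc
CRB3: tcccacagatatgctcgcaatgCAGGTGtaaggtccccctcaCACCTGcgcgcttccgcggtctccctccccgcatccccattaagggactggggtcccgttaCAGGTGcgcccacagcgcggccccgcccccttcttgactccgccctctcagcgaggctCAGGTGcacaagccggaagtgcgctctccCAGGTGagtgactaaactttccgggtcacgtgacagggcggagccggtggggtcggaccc

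The DSG2 window held 2 matches and the CRB3 window held 5. The DSC2 window held 1, and the window of a second listed DSC2 start held 0. At least 1 match stood in 15 of 28 epithelial start windows (53.6%) and in 4 of 23 mesenchymal ones (17.4%), against 17.5% of all 35116 windows and 16.8% of those of genes tested. At least 2 stood in 7 of the 28 epithelial windows, 1 of the 23 mesenchymal ones and in 2.53% of all windows. Starts of the same gene can overlap, so windows are not independent. Of the 14 epithelial genes with a match at any listed start, 11 had a negative difference (median -0.08), and of the 5 without, 2 did (median 0.03). Among all genes tested with a listed start, 52.0% of the 3265 with a match and 51.8% of the 12119 without had a negative difference. CRB3, with 5 matches, differed by -0.0042, and DSC2, with 1, by -0.35. The genes shown were chosen partly by these values, so they cannot show whether matches and differences go together. A match is a sequence of letters and not a measured binding site, and no binding was measured here.

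Among the 4 epithelial regulators 1 had groups that did not overlap. Of all genes above the median level, 27.3% had both knockout arrays above both control arrays and 21.8% below. GRHL2, a grainyhead transcription factor that activates junction genes, read 9.12 and 9.07 in control cells and 9.62 and 9.44 in knockout cells, a difference of 0.43 (SE 0.096, 1.35-fold higher, adjusted p = 0.206 by limma). It is measured by 1 probe set. ESRP1, a splicing factor that sets epithelial isoforms, read 10.10 and 10.25, then 10.21 and 10.19, so its groups overlapped (difference 0.03). ELF3, a transcription factor of the ETS family, differed by 0.03 on its brightest probe set and by 0.05 and 0.42 on the others. The last read 5.97 and 5.57 against 6.20 and 6.19, without overlap (adjusted p = 0.560 by limma over all probe sets). OVOL1 differed by -0.02. The values of GRHL2 and CDH1 thus lay in opposite directions on the same arrays.

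The membrane proteases and their inhibitor were small in difference. ST14, matriptase, read 8.58 and 8.45, then 8.75 and 8.65 (difference 0.18). A dimmer ST14 probe set differed by 0.23, and the dimmest lay the other way without overlap, at -0.23. The mean over the ST14 probe sets differed by 0.06. PRSS8, prostasin, a protease that acts with matriptase at the epithelial surface, read 7.29 and 7.17, then 7.36 and 7.39 (difference 0.14). On the brightest probe sets both knockout arrays lay above both control arrays for these proteases. They lay below them for SPINT1, the inhibitor of matriptase, which differed by -0.13. The smallest adjusted p of the 3 was 0.510 by limma. Among all genes above the median level, 27.3% had both knockout arrays above both control arrays and 21.8% below.

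Of the sorting and anchoring genes, MAL2, a protein of apical transport, read 11.27 and 11.29 in control cells and 11.09 and 11.09 in knockout cells. Its difference was small, at -0.19 (adjusted p = 0.418 by limma), with an SD of 0.0082 within the control arrays and 0.0047 within the knockout arrays. AP1M2, the epithelial subunit of a clathrin adaptor, read 7.83 and 7.72, then 7.86 and 7.88 (difference 0.10). RAB25, a GTPase of recycling vesicles, differed by -0.03, and LAD1, an anchoring filament protein, by -0.05.

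On the mesenchymal side the largest difference belonged to a cadherin. CDH11, cadherin-11, an adhesion receptor of mesenchymal cells, was measured by 4 probe sets, and all 4 had lower knockout means. The probe set that represents the gene, as the brightest over the 4 arrays, read 5.81 and 5.63 in control cells and 5.37 and 4.99 in knockout cells, a difference of -0.54 (SE 0.16, 1.45-fold lower, adjusted p = 0.310 by limma). CDH2 lay the other way at 4.48 and 4.37 in knockout cells, a difference of 0.14. Its second probe set differed by -0.09.

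A fit over all 54613 probe sets called 81 of them (0.148%), 64 higher (0.117%) and 17 lower (0.0311%). Among the 127 probe sets of the genes described here, 1 passed, a second CDH11 probe set. It fell from 6.11 and 5.80 in control cells to 3.89 and 4.06 in knockout cells, a difference of -1.98 (SE 0.145, adjusted p = 0.0457 by limma over all probe sets). The other CDH11 probe sets read 3.61 and 3.42 against 2.19 and 2.63 (-1.10, adjusted p = 0.220 in the same limma fit) and 3.47 and 2.95 against 2.87 and 2.97 (-0.29). The differences of the 4 thus ran from -1.98 to -0.29 and agreed in sign but not in size. These probe sets were singled out after their values were seen.

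The name of the probe set that passed ends in x_at, which Affymetrix gives to probe sets that may hybridise to more than 1 transcript. The mean of all 4 CDH11 probe sets differed by -0.98 (adjusted p = 0.0592 by limma). Without any 1 of the 4 arrays the difference of the probe set that passed lay between -2.14 and -1.82, and its adjusted p lay between 0.232 and 1.00. The 50 genes above the median level around CDH11 on chromosome 16 had a median difference of 0.0032, with 24 of the 50 negative.

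The filament and contractile genes differed among themselves and among probe sets. VIM read 4.53 and 4.71 in knockout cells, a difference of 0.17, while its second, dimmer probe set differed by -0.27. ACTA2, smooth muscle actin, read 5.64 and 5.75, then 5.85 and 6.03, a difference of 0.24, and its dimmer probe sets differed by -0.13 and -0.17. TAGLN, transgelin, an actin-binding protein of contractile cells, had lower knockout means on all 3 probe sets. The representing probe set read 6.08 and 5.96, then 5.90 and 5.75 (-0.20). The other TAGLN probe sets read 5.15 and 5.42 against 4.37 and 4.47 (-0.86, adjusted p = 0.184 by limma over all probe sets) and 5.999 and 6.323 against 5.52 and 5.61 (-0.59, adjusted p = 0.369).

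The 7 EMT transcription factors had a median difference of -0.19. In 5 of them both knockout arrays lay below both control arrays and in 0 above. The shares were 21.2% and 11.4% among all genes at or below the median level. In brightness, 6 of the 7 were at or below the median probe set. SNAI2, also called SLUG, was the exception, at 8.21 and 8.27 in control cells and 8.11 and 8.13 in knockout cells, a difference of -0.12 (SE 0.074) without overlap. SNAI1, the founding member of its family, read 3.78 and 3.97, then 3.66 and 3.71 (-0.19). ZEB1, a repressor of CDH1, read 3.95 and 4.18, then 3.83 and 3.90 (-0.20), and all 4 of its probe sets had lower knockout means. ZEB2 read 3.29 and 3.26, then 3.25 and 3.29, with overlap (-0.0070).

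PRRX1, a homeobox factor of mesenchymal tissue, read 3.88 and 4.14, then 3.75 and 3.73, a difference of -0.27 (adjusted p = 0.468 by limma). TWIST2 differed by -0.19 and TWIST1 by 0.06. For 6 of the 7 factors control replicate 2 read higher than control replicate 1. Without control replicate 2 the median of the 7 was -0.08, with ZEB1 at -0.08, SNAI1 at -0.10, SNAI2 at -0.09, TWIST2 at -0.03 and PRRX1 at -0.13. The median of the matrix genes was then 0.0005. On chromosome 2, the 50 genes above the median level nearest to ZEB2 had a median difference of -0.27 and 40 of the 50 were negative, while ZEB2 itself was near 0. ZEB2 itself, at a control mean of 3.28, was barely above the lower quartile, 3.26.

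Among the 9 matrix genes both knockout arrays lay below both control arrays in 4 and above in 0, with a median difference of -0.05. Over all genes the shares were 21.6% below and 21.7% above. COL3A1, a fibrillar collagen of loose connective tissue, read 3.52 and 3.55, then 3.26 and 3.17 (-0.32, adjusted p = 0.242 by limma), on the dim end of the scale. Its 4 dimmer probe sets differed by -0.12 to 0.12. TNC, tenascin, a matrix protein of wounds and tumour stroma, read 4.95 and 4.64, then 4.31 and 4.35, a difference of -0.46 (SE 0.13, adjusted p = 0.279 by limma). The dimmer TNC probe sets differed by -0.04 and 0.0094.

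COL5A1, which regulates collagen fibril width, differed by -0.27, and all 3 of its probe sets were negative. COL1A2 had the widest spread, at 3.29 and 4.33 in control cells and 3.13 and 3.57 in knockout cells, so its difference of -0.46 had an SE of 0.39. COL1A1, which pairs with COL1A2 in type I collagen, differed by 0.02 on its brightest probe set, whose name also ends in x_at. A dimmer COL1A1 probe set read 6.73 and 6.46, then 6.10 and 5.87, a difference of -0.60 (adjusted p = 0.382 by limma over all probe sets). FN1 stayed within its replicate spread, at 12.68 and 12.66 in knockout cells (-0.01). COL5A2 differed by -0.05, LOX, a collagen cross-linking oxidase, by 0.02, and FBN1, fibrillin, by 0.06. The LOX and FBN1 probe sets that were brightest on the control arrays alone differed by -0.22 and -0.39.

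Counts over all probe sets differed from those with 1 per gene. At an unadjusted p under 0.05, which 8.65% of all probe sets met in either direction, there were 5 higher and 5 lower of the 62 epithelial probe sets and 0 higher and 9 lower of the 65 mesenchymal ones. Past 1.5-fold there were 0 of the 62 epithelial probe sets and 6 of the 65 mesenchymal ones (9.23%), all lower, against 0.657% of all probe sets lower and 1.34% higher. Those 6 belong to 4 genes: CDH11 with 2, TAGLN with 2, COL1A1 and TWIST2. Probe sets of 1 gene share its transcript, so the 6 are not independent. Of the 38 genes with over 1 probe set, 17 had all differences negative, 5 had all positive, and 0 had differences past 0.3 on both sides of 0. The like count was not made over all genes, so these numbers do not show a trend of the 38. Of all probe sets 49.0% had a positive difference, and of those at or below the median level 43.5%.

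**Figure D3:**
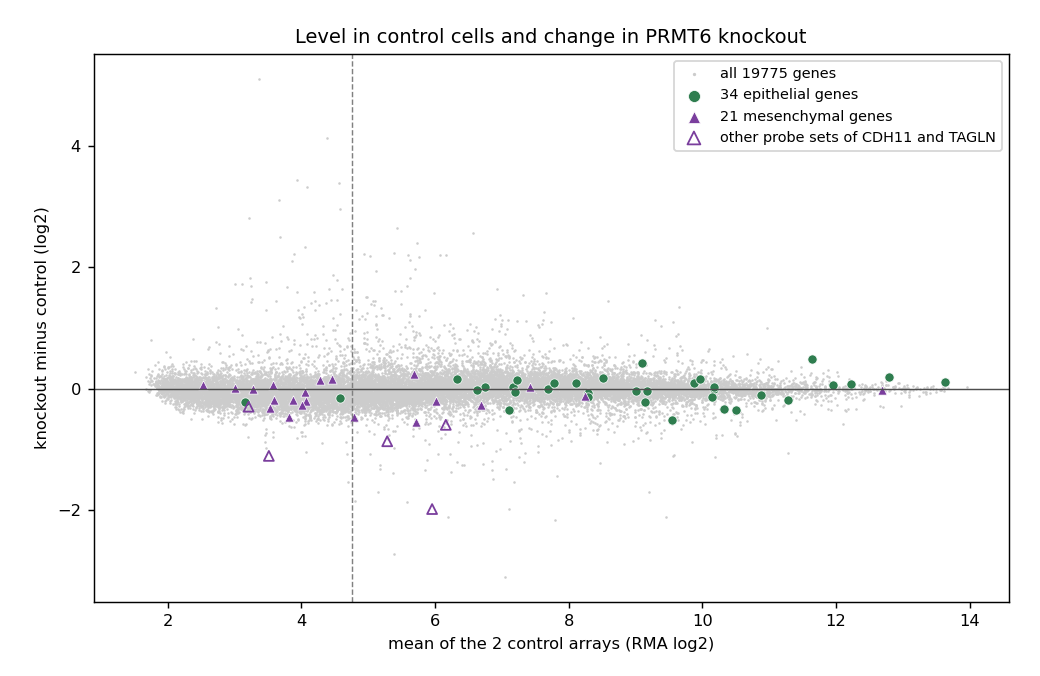
Control mean (horizontal axis, RMA log2 expression) against the log2 difference, knockout minus control (vertical axis), of the 55 genes, epithelial and mesenchymal genes in different colours over all 19775 genes in grey. Most mesenchymal genes sit at the dim left, and 14 of the 21 lie below 0, with a median of -0.12 against -0.0091 for all genes. The 13 mesenchymal genes at or below the median level have a median of -0.05, as do all genes at or below it.

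The mesenchymal values were set against brightness and against control replicate 2. Genes at or below the median level had a median difference of -0.05 over the whole array, and genes above it 0.0083. The 13 mesenchymal genes at or below the median level had a median of -0.05, as dim genes of the array did, and the 8 above it had -0.16. Control replicate 2 read higher than control replicate 1 for 14 of 21 mesenchymal genes (66.7%) and for 7 of 34 epithelial genes (20.6%), against 68.7% of all genes at or below the median level and 39.2% of those above it. Its upper quartile over all probe sets was 6.62, against 6.77 to 6.79 on the other 3 arrays. Without control replicate 2 the mesenchymal median was -0.03. The part of this array in the mesenchymal values was not tested beyond that figure.

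Of 24 measured markers of fibroblasts, leukocytes and endothelium, 12 lay above the median probe set in control cells, 2 above the upper quartile (COL1A1 and CORO1A) and 5 below the lower quartile. COL1A1 lay above the upper quartile by its brightest probe set only. Of all 19775 genes, 12770 lay above the median, 7777 above the upper quartile and 2926 below the lower quartile. Of the 9 fibroblast markers, 3 of which are genes of the mesenchymal side, 8 read higher on control replicate 2 than on control replicate 1. Their median level was 3.56 and 4.33 on the control arrays and 3.59 and 3.57 on the knockout arrays. Their summed linear signal was 289 to 355 on the control arrays and 297 to 315 on the knockout arrays. LUM, lumican, lay between 2.40 and 2.55 and FAP, fibroblast activation protein, between 2.91 and 3.16. The summed signal of the 7 endothelial markers was 168 to 199 on the control arrays and 170 to 174 on the knockout arrays, with KDR between 2.11 and 2.35. For 8 leukocyte markers it was 581 to 596 and 764 to 771, a sum carried by CORO1A, an actin-binding coronin. CORO1A read 8.76 and 8.64 against 9.23 and 9.22 (0.52, adjusted p = 0.120 by limma), or 433 and 398 against 599 and 596 on the linear scale. PTPRC, the pan-leukocyte marker, lay between 2.47 and 2.89 and differed by -0.30 (adjusted p = 0.392 by limma). The part of these markers in the mesenchymal values was not tested. In bulk RNA fewer cells of a kind and less RNA per cell cannot be told apart.

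Genes of the same pathways outside the 57 gave 0 calls by limma, which called 0.475% of all genes. With so small a share, 0 calls does not show that these genes were unchanged. An unadjusted p under 0.05 was met by 6.12% of all genes higher and 5.83% lower. Of 23 other junction and polarity genes, 0 higher and 1 lower met it, with a median of -0.02. The gene that met it was CGN, cingulin, a tight junction plaque protein, at 6.80 and 6.67 against 6.21 and 6.12 (difference -0.57, adjusted p = 0.119). NECTIN4, a junction adhesion receptor, came next at -0.28 (adjusted p = 0.457). Of 9 other epithelial transcription factors, 1 higher and 2 lower met it, with a median of -0.18. KLF4, a factor of barrier epithelia, read 9.27 and 9.26 against 9.83 and 9.80 (0.55, adjusted p = 0.0894), while GRHL1, a relative of GRHL2, read 8.67 and 8.69 against 8.25 and 8.29 (-0.41, adjusted p = 0.148). GRHL1 and GRHL2 therefore lay in opposite directions.

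Of 29 other mesenchymal genes, 12 were positive and 17 negative, and the median was -0.01. Of the 29, 6 higher and 1 lower met the unadjusted threshold, against 6.12% and 5.83% of all genes. By the brightest probe set of each gene WNT5A, a Wnt ligand, was the only one past 1.5-fold, at 4.21 and 3.57 against 4.71 and 4.66 (0.80, adjusted p = 0.297 by limma). TPM1, a tropomyosin of actin filaments, read 10.16 and 10.19 against 10.66 and 10.61 (0.46, adjusted p = 0.123 by limma). CALD1, caldesmon, which also binds actin and tropomyosin, read 8.61 and 8.39 against 9.03 and 9.09 (0.56, adjusted p = 0.153 by limma). Other CALD1 probe sets, which passed the trended, robust eBayes over all probe sets, differed by 1.08 and 1.16, each past 1.5-fold. TPM1 and CALD1 both lay opposite to TAGLN, another actin-binding gene. Of 10 genes of the TGF-beta pathway, a main inducer of EMT, 1 higher and 2 lower met the threshold, with a median of 0.04. TGFBR2, the type II receptor, read 7.69 and 7.74 against 6.89 and 7.14 (-0.70, adjusted p = 0.122 by limma), and SKIL, an inhibitor of SMAD signalling, read 8.56 and 8.51 against 8.99 and 8.88 (0.40, adjusted p = 0.185 by limma).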

How the data were processed

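Total RNA of NUGC3 control and PRMT6 knockout cells was measured, 2 arrays each, on single-colour Affymetrix arrays. The authors deposited 1 log2 value per probe set and array; the submitters' processing notes name RMA and affy but give no version. RMA subtracts background, gives arrays a common probe distribution and summarises probes, so a shift shared by most transcripts is removed and dim probe sets show compressed differences. Precision is limited by the number of arrays, which have no depth.

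Probe sets with 1 symbol in the platform annotation (41091 of 54613, with 1801 having several and 11721 none) were used, and 41037 matched the reference gene table by gene ID. Each of 19775 genes was represented by its brightest probe set over the 4 arrays. limma 3.58.1 in R 4.3.3 (lmFit, eBayes) compared knockout with control, two-sided, with Benjamini-Hochberg adjustment over all genes, or over all probe sets where stated. The steps were tested on simulated data. Gene order came from assembly GRCh38.p14, without coordinates, taking 25 measured genes above the median level on each side where the chromosome allowed. Promoter windows came from RefSeq.

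The genes and gene lists were chosen with earlier results of these data known. Values of all arrays are given for CDH1, EPCAM, KRT8, KRT18, KRT19, CLDN4, CDH2, VIM, FN1, ZEB1, ZEB2, SNAI1 and SNAI2, for the 2 genes of smallest p in each role, and for genes that passed. Of each pathway list outside the 57, the 2 genes of smallest p are given, and WNT5A was added after its value was seen. Marker genes were chosen to check the labels, with their values seen. Other values shown were chosen after they were seen. Alternatives were quantile and cyclic loess normalization, the mean of a gene's probe sets, all probe sets, genes above the median level, a trended and robust eBayes, the replicate number as a block, and leaving out each array. The CDH11 probe set was added as a result after seeing the data.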

Additional observations from a re-analysis of the deposited data

How the results depend on the processing

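The count of genes called was 94, against 138 with the mean of a gene's probe sets, 195 under quantile normalization, 231 under cyclic loess, 309 among genes above the median level and 835 with a trended, robust eBayes, and 0 by limma with the replicate block and without any 1 array (1942 genes at an unadjusted p under 0.05 with the block). Same-numbered arrays did not deviate together across genes (r = -0.07). With 2 arrays a group this cannot show whether arrays of the same number shared a culture or batch. The share of calls that were higher was 75.5%, against 68.1% with the mean of probe sets, 63.6% under either normalization, 61.2% above the median level, 58.0% with the trended eBayes and 79.0% over all probe sets. Of the 55 genes, 7 passed with the trended, robust eBayes (CDH1, CLDN1, DSG2, GRHL2, KRT7, KRT8 and MAL2), 1 over all probe sets, and 0 under the other settings. Of the genes outside the 57, 3 passed above the median level (CGN, KLF4 and TPM1) and 11 with the trended eBayes. The epithelial median of -0.0040 moved to -0.0231 over all probe sets, -0.0428 under quantile, -0.031 under loess and 0.0116 above the median level, and lay between -0.0225 and 0.0077 without 1 array. The mesenchymal median of -0.12 was -0.15 under quantile normalization and lay between -0.14 and -0.027 without 1 array. The CDH11 probe set kept its direction, with an adjusted p by limma of 0.0284 under quantile, 0.0378 under loess, 0.0028 with the trended eBayes and 0.243 with the replicate block (difference -1.98), and lay between -2.14 and -1.82 without 1 array. Among values that passed no test, the sign turned with the mean of probe sets for KRT19 (-0.0366), CLDN3 (-0.041), VIM (-0.0532), ACTA2 (-0.0202), FN1 (0.0996), COL1A1 (-0.188), FBN1 (-0.1018), LOX (-0.0614) and OCLN (0.005). It also turned under normalization for ZEB2 (0.027 under quantile, 0.0336 under loess), ELF3 (-0.0444 and -0.0181), MARVELD2 (-0.0413 and -0.0177), COL1A1 (-0.0233 and -0.0195) and, under loess only, FN1 (0.0245) and COL5A2 (0.0055). Among the genes that the stated rule gives with all arrays, it turned without 1 array for ESRP1 (from -0.0431 to 0.1046), ZEB2 (from -0.0293 to 0.0153), EPCAM (from -0.0008 to 0.1253) and FN1 (from -0.057 to 0.0278). Other genes turned as well. Among them, without control replicate 2, were COL1A2 (from -0.4592 to 0.0625) and CRB3 (from -0.0042 to 0.0105). The cause was not tested for any of these. Scaling moved the median of all genes from -0.0091 to -0.02 at most.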
